A study of Mus musculus with 16 samples.

Results

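The calcium/calmodulin-dependent kinases (CaM kinases) were examined as a family of 10 listed genes: Camkk1 and Camkk2, Camk1, Camk1d and Camk1g, Camk4, and Camk2a, Camk2b, Camk2d and Camk2g. Of these, 9 had a probe set annotated to their symbol alone on both array types used, among 19938 genes on the array of the younger mice and 22180 on the other. Camkk1, which encodes a kinase that activates other CaM kinases, was not analysed here. The set was chosen by its measured values at postnatal day 14 (P14), where Camk1g was already known to be far lower in mutants, so all P14 values of these kinases are a description with no test. P9 and P21 came from other mice and were tested. The data were RNA levels in cortex, with 1 Affymetrix gene array per mouse.

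The study asked what ERK/MAPK signaling does in developing excitatory neurons of the cortex. ERK/MAPK signaling runs through the kinases MAP2K1 and MAP2K2 (MEK1 and MEK2). The loss-of-function mutants (Map2k1/2;Neurod6-Cre) combined a loxp-flanked exon 3 of Map2k1, a germline neo insertion in Map2k2 and Neurod6-Cre, a driver of Cre recombinase in postmitotic cortical excitatory neurons. They were taken at P9 (2 mutants and 2 controls) and at P14 (3 mutants and 3 controls). The gain-of-function mutants (ca-Map2k1;Neurod6-Cre) overexpressed a constitutively active Map2k1 after Cre and were taken at P21 (3 mutants and 3 controls). The study's methods give controls as littermates with or without Cre, on a mixed genetic background. Which of these each control was, its Map2k1 and Map2k2 alleles and its litter were not given in the sources used here. In the loss-of-function mutants all cells carried the germline Map2k2 insertion, whereas only cells with a history of Neurod6-Cre lost Map2k1. The cortex thus still held other neurons, glia and vessels with an intact Map2k1. The replicates were labelled as separate mice.

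CaM kinases couple calcium entry to phosphorylation. Calcium binds calmodulin, and calcium/calmodulin then releases the kinases from autoinhibition. CaMKK1 and CaMKK2 phosphorylate and further activate CaMKI and CaMKIV, the products of the Camk1 genes and Camk4. CaMKIV is nuclear and is known for phosphorylating CREB, while CaMKI isoforms act mainly in the cytoplasm. CaMKIγ, encoded by Camk1g, is anchored to membranes by lipid and has been linked to dendrite growth in cultured cortical neurons. CaMKII is a separate branch, a large holoenzyme of α, β, γ and δ subunits, and the α and β subunits are among the most abundant proteins of forebrain synapses.

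The tissue and the arrays were checked before the kinases. Slc17a7, the vesicular glutamate transporter of cortical excitatory neurons, had a lowest brightness percentile within an array of 99.1 at P9, 99.2 at P14 and 99.4 at P21. Across whole arrays, correlations within an age ran from 0.977 to 0.997. Median log2 values were 6.13 to 6.18 at P9, 7.91 to 8.08 at P14 and 6.23 to 6.31 at P21, so the ages were not on a common scale and levels were compared only within an age. At P14, 2 of the 3 mutants (mice 9 and 11) were female by Xist and Y-linked genes, whereas all 3 P14 controls and all 10 mice of the other ages were male. Mutant 1 and control 2 of P14 deviated together from their group means (r = 0.76 over all genes). Map2k1 did not check the loss-of-function labels, since its probe set spans the whole gene and not exon 3 alone: it was 10.74 to 10.88 in P14 controls and 10.79 to 10.91 in P14 mutants. Map2k2 did not separate the groups either, at 9.01 to 9.18 in P14 controls and 9.06 to 9.14 in P14 mutants. Its log2 change was 0.03 at P14 (adjusted p = 0.995, limma) and 0.003 at P9, and the reason was not tested. At P21 Map2k1 was 10.08 to 10.12 in controls and 10.29 to 10.38 in mutants, with no overlap (log2 change 0.23, adjusted p = 0.310, limma). Because RNA came from whole tissue, fewer cells of a type and less RNA per cell cannot be told apart.

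**Figure D1:**
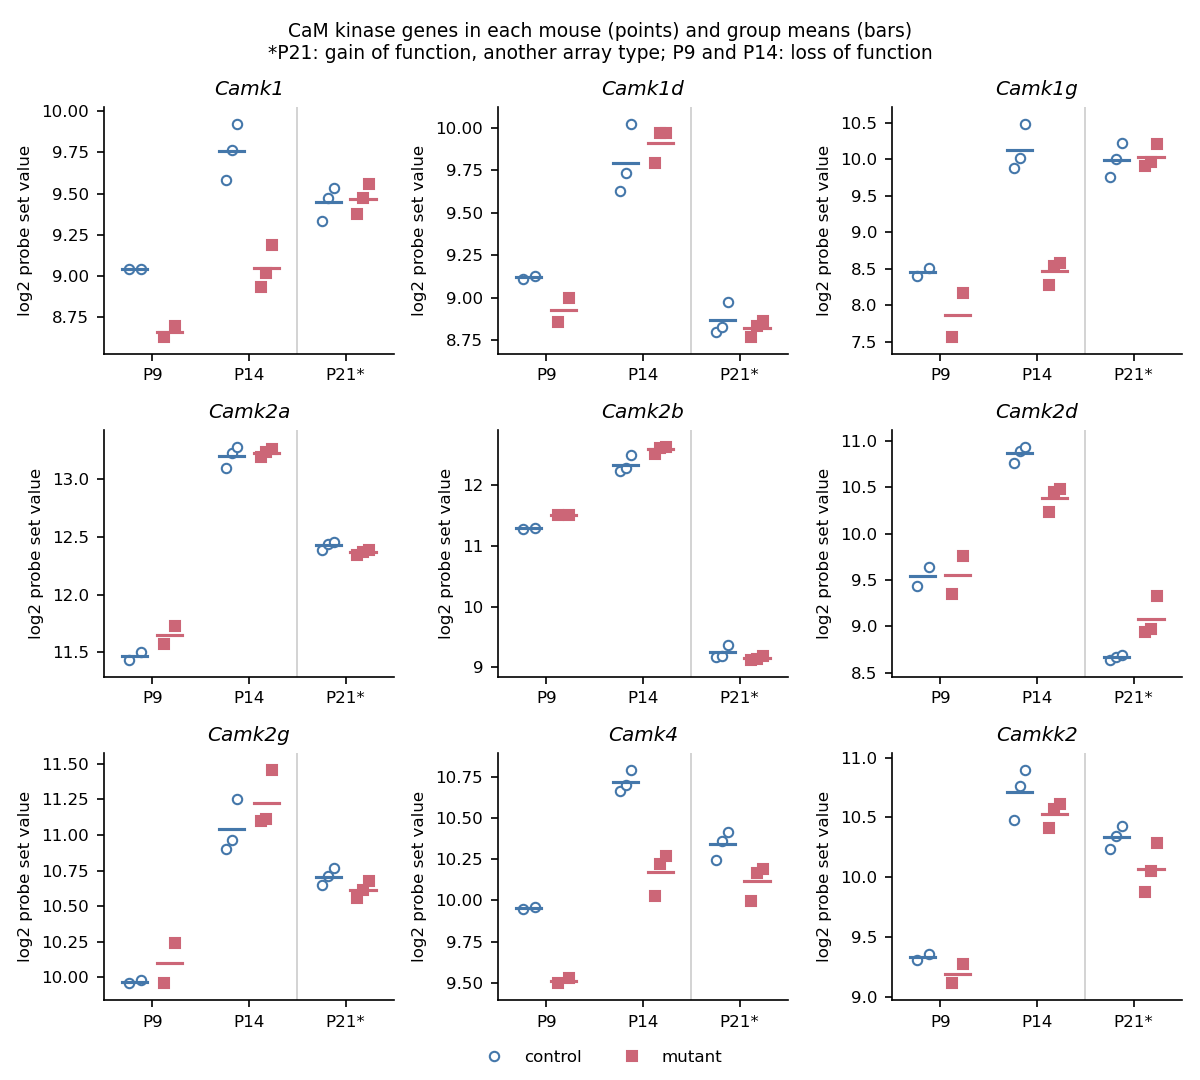
Log2 probe set value (y axis) of each measured CaM kinase gene by age and genotype (x axis). Points are mice and bars are group means. Levels are comparable within an age only. In the Camk1g panel the 3 P14 mutants lie between 8.28 and 8.58 and the 3 controls between 9.87 and 10.49, while the P21 groups overlap.

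Camk1g was the family member with the lowest mutant values relative to control at P14. Its log2 values were 10.49, 10.01 and 9.87 in controls 2, 10 and 12 and 8.58, 8.28 and 8.54 in mutants 1, 9 and 11. The highest mutant was 1.29 below the lowest control. The control mean was 10.13 ± 0.32 (SD, n = 3) and the mutant mean 8.47 ± 0.16 (SD, n = 3), a log2 change of -1.66 (SE 0.17) or 3.16-fold lower. Of the 19938 genes, this change ranked 14 from the lowest. In brightness, the Camk1g probe set had a percentile of 81.6 to 88.2 within its array in controls and of 47.3 to 54.4 in mutants, near the middle of all genes. Among mice 9 to 12 alone the change was -1.53, but there both mutants were female and both controls male. With sex as a covariate it was -1.54. That value is the difference between male mutant 1 and the control mean, since no P14 control was female. The 2 female mutants had 8.28 and 8.54 and the male mutant 8.58.

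At P9, in different mice, Camk1g was also lower in both mutants. The controls had 8.51 and 8.40, and mutants 1 and 4 had 7.56 and 8.17. The groups did not overlap, but the 2 mutants differed from each other by more than mutant 4 differed from the controls. The log2 change was -0.59 (SE 0.20, 95% interval -1.07 to -0.11), or 1.51-fold lower, and it did not pass the test over all genes (unadjusted p = 0.024, adjusted p = 0.382, limma). Its size rested on which mutant was used, at -0.89 without mutant 4 and -0.29 without mutant 1. At P21, in the gain-of-function model, Camk1g had 9.75, 10.00 and 10.23 in controls and 9.91, 9.96 and 10.21 in mutants. These groups overlapped throughout, and the log2 change was 0.04 (SE 0.13, 95% interval -0.27 to 0.34, adjusted p = 0.952). The interval of this difference includes moderate changes in either direction. Whether the changes differed between ages or models was not tested, since age, model and array type cannot be told apart for P21.

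The sequences around the start of 3 genes are shown because Camk1g and Camk1 were lower and Camk2b higher in the mutants, without overlap, at both P9 and P14. Camk4 was lower in the same way but had no window here. Windows of 250 bases before to 50 after the annotated start came from RefSeq (GRCm38.p6), and 7 of the 10 listed genes had at least 1. Each window was searched on both strands for letters known from activity-regulated and neuronal transcription: the full CRE (TGACGTCA), its shorter core (TGACG, contained in the full site), AP-1 (TGANTCA), EGR (GCGNGGGCG), ETS (CCGGAA), the CArG box and the E-box preferred by NEUROD factors (CAGATG). Capitals mark matches, and all 3 genes lie on the minus strand, printed 5′ to 3′ as transcribed.
Camk1g, chr1:193370233-193370532: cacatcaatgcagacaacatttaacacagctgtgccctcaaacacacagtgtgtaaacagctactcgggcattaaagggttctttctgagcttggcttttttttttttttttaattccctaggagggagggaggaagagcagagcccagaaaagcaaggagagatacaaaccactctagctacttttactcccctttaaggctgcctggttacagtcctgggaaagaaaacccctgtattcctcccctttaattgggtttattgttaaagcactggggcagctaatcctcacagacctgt
Camk1, chr6:113343873-113344172: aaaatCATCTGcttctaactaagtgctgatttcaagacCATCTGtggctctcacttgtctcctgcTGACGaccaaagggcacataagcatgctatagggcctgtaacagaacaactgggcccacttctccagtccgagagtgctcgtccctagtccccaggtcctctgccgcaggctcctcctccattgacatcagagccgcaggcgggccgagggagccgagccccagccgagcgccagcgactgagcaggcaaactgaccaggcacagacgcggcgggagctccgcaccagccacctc
Camk2b, chr11:6065699-6065998: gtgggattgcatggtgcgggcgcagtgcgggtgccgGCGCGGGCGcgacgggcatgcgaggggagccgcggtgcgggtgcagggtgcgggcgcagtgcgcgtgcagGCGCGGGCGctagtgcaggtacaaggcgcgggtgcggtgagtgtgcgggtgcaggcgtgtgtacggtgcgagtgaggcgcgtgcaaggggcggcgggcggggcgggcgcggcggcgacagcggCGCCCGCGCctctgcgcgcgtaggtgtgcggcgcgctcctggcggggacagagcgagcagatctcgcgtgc
The Camk1g window held none of these letters and had a GC content of 44.7%. The Camk1 window (60% GC) held 2 NEUROD E-boxes, found in 17.2% of all 32851 windows, and 1 CRE core, found in 20.8%. The Camk2b window (77.3% GC) held 3 EGR matches, found at least once in 5.55% of windows. Among the windows not printed, those of Camkk2 and Camk2d held no match. Those of Camk1d held 1 EGR, 1 ETS and 1 E-box match, and that of Camkk1 held 1 CRE core. In the background, the full CRE was in 1.79% of windows, AP-1 in 7.81%, ETS in 14.9% and the CArG box in 1.63%. The CRE core and the E-box are short and common, and a match is a run of letters, not a bound site.

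The other CaMKI genes differed from Camk1g and from each other. Camk1 encodes CaMKIα, the widely expressed form. At P14 it had 9.92, 9.58 and 9.76 in controls and 9.19, 9.02 and 8.93 in mutants, with no overlap and a log2 change of -0.71 (SE 0.12), or 1.63-fold lower. At P9 the controls both had 9.04 and the mutants 8.63 and 8.70. All mutants were again below all controls, by a smaller log2 change of -0.38 (SE 0.08, 95% interval -0.58 to -0.18), with an unadjusted p of 0.0038 and an adjusted p of 0.229 (limma). At P21 the Camk1 groups overlapped, from 9.33 to 9.54 in controls and from 9.37 to 9.56 in mutants, with a log2 change of 0.02 (95% interval -0.17 to 0.22). Camk1d encodes CaMKIδ. Its mutants were below its controls at P9 (9.11 and 9.13 in controls, 8.86 and 9.00 in mutants), with a log2 change of -0.19 (adjusted p = 0.526). At P14 its groups overlapped, at 10.03, 9.63 and 9.73 in controls and 9.97, 9.79 and 9.97 in mutants, and the log2 change was 0.11 (SE 0.12). At P21 it was -0.04 (SE 0.08). Thus the 3 CaMKI genes were at -1.66, -0.71 and 0.11 at P14. The P9 means had the same order, with -0.59, -0.38 and -0.19, where the interval of Camk1g spanned the other 2 values. In P9 mutant 4, however, Camk1g was -0.29 from the control mean and Camk1 -0.34.

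Camk4, the nuclear CaM kinase, was lower in mutants at each age, in both models. At P9 it had 9.96 and 9.95 in controls and 9.50 and 9.53 in mutants, so that the mice of a group lay close together and the groups lay 0.42 apart. The log2 change was -0.45 (SE 0.08, 95% interval -0.64 to -0.25), or 1.36-fold lower, with the smallest p of the family at this age (unadjusted p = 0.0015, adjusted p = 0.176, limma). At P14 Camk4 had 10.79, 10.67 and 10.70 in controls and 10.27, 10.22 and 10.02 in mutants, a log2 change of -0.55 (SE 0.10). At P21 it had 10.41, 10.25 and 10.36 in controls and 10.00, 10.19 and 10.17 in gain-of-function mutants. These groups were separated by 0.05, and the log2 change of -0.22 (SE 0.08, 95% interval -0.41 to -0.03) did not pass the test over all genes (adjusted p = 0.413). A second, much dimmer Camk4 probe set on the P21 array ran the other way, at a mean of 6.59 in controls and 6.71 in mutants. Camkk2 encodes the activating kinase of CaMKI and CaMKIV that was measured here. It was 9.36 and 9.30 in P9 controls and 9.27 and 9.11 in P9 mutants (log2 change -0.14, adjusted p = 0.670). At P14 its groups overlapped (10.48, 10.76 and 10.90 against 10.41, 10.61 and 10.57), with a log2 change of -0.18 (SE 0.13). At P21 they overlapped as well (10.42, 10.24 and 10.35 against 9.87, 10.05 and 10.29), and the log2 change was -0.27 (SE 0.11, unadjusted p = 0.046, adjusted p = 0.470).

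**Figure D2:**
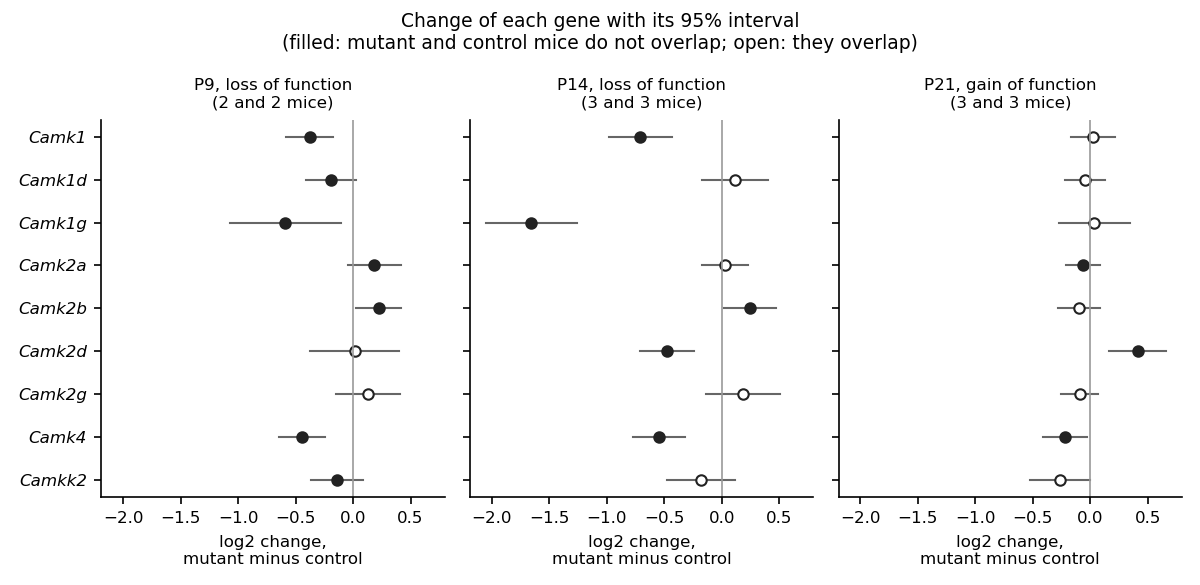
Log2 change, mutant minus control (x axis), of each measured CaM kinase gene (y axis) at P9, P14 and P21. Points are the fitted changes and lines their 95% intervals, and the P14 panel is a description. Camk1g lies at -0.59, -1.66 and 0.04, and Camk2d at 0.01, -0.48 and 0.41.

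The CaMKII subunit genes did not move as one group. Camk2a, the α subunit of mature excitatory synapses, had 13.10, 13.23 and 13.28 in P14 controls and 13.19, 13.24 and 13.27 in P14 mutants, with overlap and a log2 change of 0.03 (SE 0.09). Its probe set had a percentile of at least 99.9 on all P14 arrays, close to the top of the measured range, where an array reports differences less well. At P9 both mutants (11.73 and 11.57) were above both controls (11.43 and 11.50), with a log2 change of 0.19 (adjusted p = 0.552). At P21 all mutants (12.37, 12.34 and 12.39) were below all controls (12.46, 12.39 and 12.44), by a gap of only 0.002, with a log2 change of -0.07 (adjusted p = 0.772).

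Camk2b encodes the β subunit, which binds actin and targets the holoenzyme to spines. In contrast to Camk1g, Camk1 and Camk4 it was higher in the loss-of-function mutants at both ages. At P9 the controls had 11.28 and 11.30 and both mutants 11.51, a log2 change of 0.22 (SE 0.08, 95% interval 0.03 to 0.42, unadjusted p = 0.032, adjusted p = 0.419). At P14 the controls had 12.49, 12.24 and 12.29 and the mutants 12.63, 12.61 and 12.52, a log2 change of 0.25 (SE 0.10) with a gap of 0.03. In the P21 gain-of-function mice the groups overlapped, at 9.17, 9.19 and 9.38 in controls and 9.13, 9.12 and 9.19 in mutants, and the log2 change was -0.10 (95% interval -0.28 to 0.08).

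Camk2d, the δ subunit known best from the heart, was the only measured member whose groups did not overlap in opposite directions at P14 and P21. At P14 it was lower in mutants, with 10.93, 10.89 and 10.76 in controls and 10.48, 10.24 and 10.45 in mutants, a log2 change of -0.48 (SE 0.10). At P21 it was higher in mutants, with 8.64, 8.67 and 8.69 in controls and 9.32, 8.98 and 8.94 in mutants. The P21 controls lay close together (SD 0.03), whereas mutant 1 stood above the other mutants (SD 0.21). The P21 log2 change was 0.41 (SE 0.11, 95% interval 0.17 to 0.66, unadjusted p = 0.0050, adjusted p = 0.260, limma), and it was 0.29 without mutant 1. At P9 Camk2d overlapped, with 9.44 and 9.64 in controls and 9.76 and 9.35 in mutants, and a log2 change of 0.01 (95% interval -0.37 to 0.40). Camk2g, the γ subunit, which is known for carrying calmodulin to the nucleus, overlapped at all 3 ages. At P14 it had 11.25, 10.90 and 10.96 in controls and 11.46, 11.10 and 11.11 in mutants. In each group the mouse numbered 1 or 2 was the highest. Its log2 changes were 0.13 at P9 (SE 0.11), 0.18 at P14 (SE 0.14) and -0.09 at P21 (SE 0.07, adjusted p = 0.702).

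As a family, the 9 genes had a median log2 change of -0.14 at P9, -0.18 at P14 and -0.07 at P21, beside 0.01, 0.02 and 0.01 over all genes. Without Camk1g, the other 8 genes ran from -0.45 to 0.22 at P9 (median -0.06), from -0.71 to 0.25 at P14 (median -0.07) and from -0.27 to 0.41 at P21 (median -0.08). By mean change, Camk1g was therefore the lowest of the family at P9 and P14 and the highest but for Camk2d at P21. The P9 rank rested on mutant 1. In P9 mutant 4, Camk1g was -0.29 from the control mean, above Camk1 (-0.34) and Camk4 (-0.43). At P9, no member passed an adjusted p of 0.05 (limma with Benjamini-Hochberg adjustment), where 0.0752% of all genes did. At an unadjusted p under 0.05 there were 4 of 9 (Camk1, Camk1g and Camk4 lower, Camk2b higher), beside 10.5% of all genes. All mutants were below all controls in 5 of 9, beside 19.7% of genes, and above in 2 of 9, beside 22%. With 2 mice a group, such separation was common across the array.

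At P14 the values chose the family, so the counts are a description and their excess over all genes tests nothing. There, 2 of 9 (Camk1 and Camk1g, both lower) were past an adjusted p of 0.05, beside 1.09% of all genes. Past an unadjusted p of 0.05 were 5 of 9, beside 8.43%. All P14 mutants were below all controls in 4 of 9 (Camk1, Camk1g, Camk2d and Camk4), beside 6.52% of genes, and above in 1 of 9 (Camk2b), beside 7.11%. Without mutant 9, without mutant 11 or with sex as a covariate, 0 of 9 were past the adjusted threshold, beside 39, 27 and 38 of 19938 genes. Past an unadjusted p of 0.05 in these settings were 4, 4 and 5 of 9, beside 1256, 1170 and 1707 genes. Among mice 9 to 12 alone, 4 of 9 were past the adjusted threshold, beside 984 genes, but there genotype and sex coincided. At P21, 0 of 9 passed an adjusted p of 0.05 and 0% of all genes did. At an unadjusted p under 0.05 there were 3 of 9 (Camk4 and Camkk2 lower, Camk2d higher), beside 10.4%. All P21 mutants were below all controls in 2 of 9 (Camk2a and Camk4), beside 7.67%, and above in 1 of 9 (Camk2d), beside 8.15%.

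**Figure D3:**
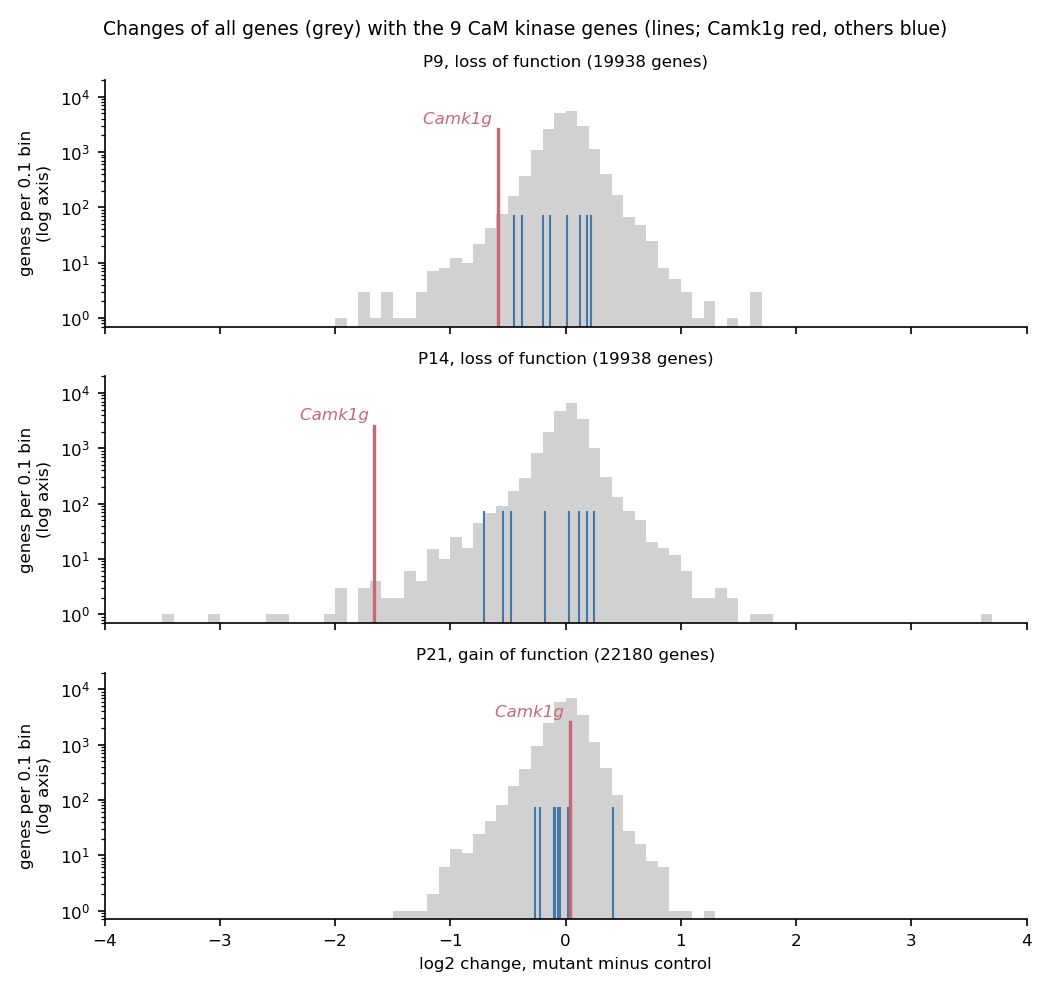
Number of genes (y axis, log scale) by log2 change, mutant minus control (x axis, bins of 0.1), at P9, P14 and P21. Grey bars are all genes, the red line is Camk1g and the blue lines are the other 8 CaM kinase genes. At P14 Camk1g lies at -1.66, in the sparse lower tail, and the others between -0.71 and 0.25.

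The genes most alike to Camk1g across the 16 arrays were Mmp17 (r = 0.98), Epha4 (0.97), Nrp1 (0.96), Gabra5 (0.96) and Mpped1 (0.96), out of 18961 other genes measured on both arrays. Each value was taken minus its own age's mean, so the likeness includes the difference between genotypes and above all that of P14, and it is a description. Epha4 and Nrp1 encode receptors for the guidance cues ephrins and semaphorins, and Gabra5 a GABA-A receptor subunit. At P14 the log2 changes were -1.07 for Mmp17, -0.77 for Epha4, -1.13 for Nrp1, -2.55 for Gabra5 and -1.32 for Mpped1. At P21 the same 5 genes stood at -0.05, 0.08, 0.08, 0.20 and 0.08, close to the 0.04 of Camk1g. After the group means were also removed, leaving only the spread among mice of a group, r was 0.83 for Mmp17, 0.83 for Epha4, 0.88 for Nrp1, 0.67 for Gabra5 and 0.60 for Mpped1. These 5 genes were picked by an r over the same arrays that already includes this spread, so these values are not independent of the choice. The shared deviation of P14 mutant 1 and control 2 over all genes also enters them. Of the family, Camk1 was nearest to Camk1g (r = 0.91, rank 63), followed by Camk4 (0.82, rank 279) and Camk2d (0.54). Camkk2 (0.24) and Camk1d (-0.03) were weakly related, and Camk2g (-0.41), Camk2a (-0.47) and Camk2b (-0.58) ran against it. With the group means removed, r was 0.34 for Camk1, 0.20 for Camk4 and -0.21 for Camk2d. It was 0.49 for Camk1d, 0.11 for Camk2g and -0.44 for Camkk2, and it stayed negative for Camk2a (-0.73) but was positive for Camk2b (0.63). The order of the family by likeness thus differed between the 2 measures.

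Other genes of the calcium/calmodulin pathway were read from 7 lists of 66 genes, none of them a member, of which 63 were measured at P9 and P14 and 57 at P21. The lists were chosen with earlier results of these data known, so their P14 counts and calls are given as a description. At P14, 2 were past an adjusted p of 0.05, both lower in mutants, beside 1.09% of all genes. At an unadjusted p under 0.05 there were 13 lower and 6 higher, beside 8.43% of all genes in either direction. Gap43, a growth-cone protein that binds calmodulin at low calcium, had 11.45, 10.93 and 11.00 in controls and 10.18, 9.52 and 9.54 in mutants (log2 change -1.38, SE 0.21, adjusted p = 0.033, limma). Hdac9, a class IIa histone deacetylase of the kind that CaM kinases export from the nucleus, had 10.37, 10.22 and 10.12 in controls and 9.17, 9.02 and 9.03 in mutants (log2 change -1.16, SE 0.10, adjusted p = 0.0043). The groups of both genes were well apart, and in both mutant 1 and control 2 were the highest of their group. At P9 Hdac9 was 9.36 and 9.10 in controls and 8.38 and 8.25 in mutants, and its log2 change of -0.92 did not pass the test over all genes (adjusted p = 0.102). At P21 Hdac9 had a log2 change of 0.36 (adjusted p = 0.285) and Gap43 of 0.30 (adjusted p = 0.353), with all gain-of-function mutants above all controls in both. The Gap43 call was lost when any P14 mouse other than mutant 1 was left out (adjusted p up to 0.174), and with sex as a covariate (log2 change -0.95, adjusted p = 0.191), where 2 of the 3 mutants were female. It was also lost with centring on the array median (adjusted p = 0.074) and without variance moderation (adjusted p = 0.222).

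By role, the pathway lists stayed near the median of all genes at P14, except for the calmodulin effectors. Calm3, 1 of the 2 calmodulin genes measured, had a log2 change of -0.05 (adjusted p = 0.995), at 12.65, 12.68 and 12.66 in controls and 12.54, 12.68 and 12.63 in mutants. The CaMKII inhibitors, phosphatases and calmodulin buffers had a median of 0.03 over 7 genes, and apart from Gap43 none had an unadjusted p under 0.05. Calcineurin, the calcium-dependent phosphatase that opposes these kinases, and its regulators had a median of 0.08 over 8 genes. The smallest p among them was that of the inhibitor Rcan1, with a log2 change of -0.23 (adjusted p = 0.481). Calcium entry had a median of 0.04 over 7 channel genes, of which 2 had higher and 2 had lower values with an unadjusted p under 0.05. Of these, the L-type channel gene Cacna1c had a log2 change of 0.35 (adjusted p = 0.260). The nuclear and kinase targets had a median of -0.01 over 15 genes. The related kinases had a median of 0.00 over 12, with Dclk1, a microtubule-binding kinase, at -0.38 (adjusted p = 0.097). The other calmodulin effectors had a median of -0.28 over 12 genes, 6 of them lower and 2 of them higher by unadjusted p under 0.05, beside 8.43% of all genes, and none past the adjusted threshold. The list also held Rasgrp1, a Ras exchange factor regulated by calcium and diacylglycerol and so not strictly a calmodulin effector. It had a log2 change of -0.47 (adjusted p = 0.088, limma). At P9 the 12 genes of this list had a median of -0.05 and at P21, with 11 measured, 0.12. No pathway gene passed the adjusted threshold at P9 (at an unadjusted p under 0.05, 6 were higher and 8 lower of 63, beside 10.5% of all genes) or at P21 (8 and 5 of 57, beside 10.4%).

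**Figure D4:**
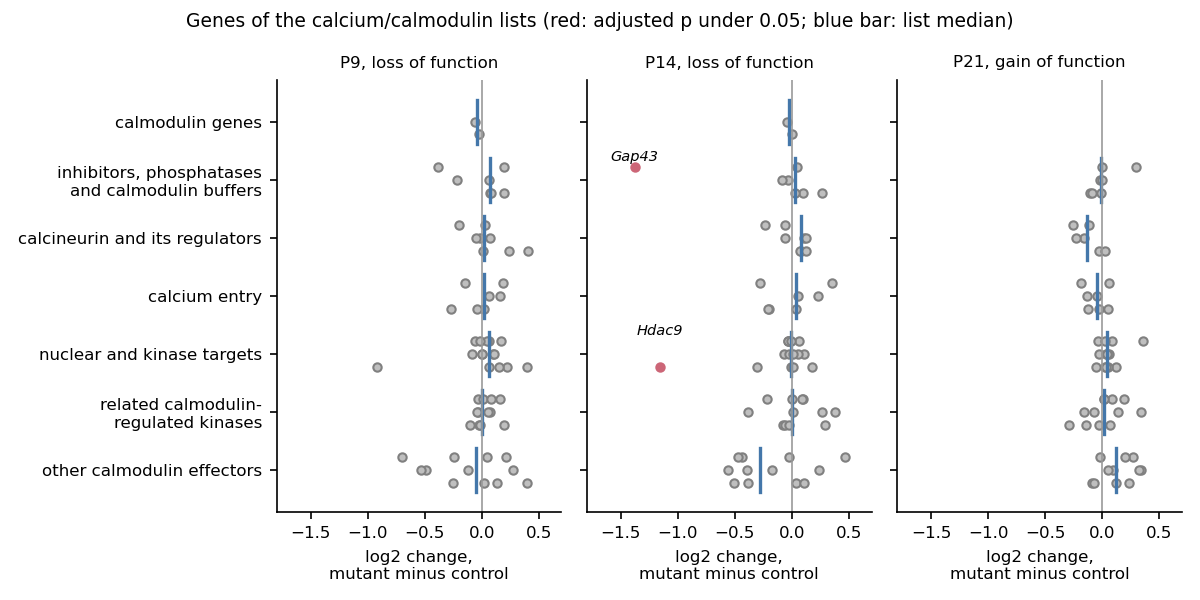
Log2 change, mutant minus control (x axis), of the measured genes of 7 calcium/calmodulin lists (y axis) at P9, P14 and P21. Each point is a gene, red points passed an adjusted p of 0.05 and blue bars are list medians. Gap43 at -1.38 and Hdac9 at -1.16 are the red points, both at P14.

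Marker genes of other cell types and of neighboring tissue moved with genotype at some ages. At P14 the mean log2 level of 5 excitatory neuron markers was 10.61 to 10.85 in controls and 10.23 to 10.39 in mutants, with a median log2 change of -0.34. In this list Slc17a7 was at -0.06 and Neurod2 at 0.09, Slc17a6, Tbr1 and Nrn1 were lower at an unadjusted p under 0.05, and only Nrn1 passed the adjusted threshold (-0.93, adjusted p = 0.0067). The study names Nrn1 among plasticity-associated genes whose expression it links to ERK/MAPK. Whether the change of Nrn1 came from fewer cells or from less RNA per cell was not tested. The mean of 4 striatal markers was 8.51 to 8.64 in P14 controls and 8.69 to 9.20 in mutants, with a median log2 change of 0.40. Of these, 3 of 4 were higher at an unadjusted p under 0.05, beside 8.43% of all genes in either direction, and 0 passed the adjusted threshold. Of 4 endothelial markers, 2 were lower at an unadjusted p under 0.05 (median -0.28), and 0 passed the adjusted threshold. The other lists had medians from -0.10 for astrocytes to 0.17 for oligodendrocytes. Neurod6, whose locus drives the Cre, was 8.91 to 10.14 in P14 controls and 6.16 to 6.78 in mutants. In P9 mice it was 9.10 and 9.28 in controls and 7.07 and 7.71 in mutants. The P21 mutants also carried Neurod6-Cre, but there the Neurod6 groups overlapped, at 8.46 to 8.75 in controls and 8.33 to 8.52 in mutants. The P21 log2 change was -0.24 (adjusted p = 0.463, limma). The reason for the Neurod6 changes was not tested. At P9 the excitatory list had 9.77 to 9.82 in controls and 9.47 in both mutants, and the astrocyte list 9.65 to 9.68 in controls and 9.79 to 9.86 in mutants. Directions within both lists were mixed, and no marker of either passed the adjusted threshold. Slc17a7 (log2 change 0.11) and Neurod2 (0.05) were higher, and Slc17a6 (-0.94), Nrn1 (-0.61) and Tbr1 (-0.25) lower. Gfap (0.61), Gja1 (0.36) and Slc1a3 (0.21) were higher, and Aqp4 (-0.25) and Aldh1l1 (-0.12) lower. At P21 the oligodendrocyte list had 9.93 to 10.24 in controls and 9.65 to 9.86 in mutants. Of its markers, 3 of 4 were lower at an unadjusted p under 0.05, beside 10.4% of all genes in either direction, and 0 passed the adjusted threshold. The part of these shifts in the kinase values was not tested.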

How the data were processed

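The authors deposited log2 values per probe set, which the study's methods describe as made with RMA (background adjustment, quantile normalization and median polish). Partek 6 is named in the submitters' processing notes, and no genome build was given in the sources used here. P9 and P14 shared an array type and P21 used another. Tissue is sensory cortex in the labels and dorsal cortex in the methods, and RNA was extracted with a miRNeasy kit per the labels or with Trizol and RNeasy per the methods.

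Of 35557 probe sets at P9 and P14, 21789 carried 1 symbol, 1621 several and 12147 none, and of 41345 at P21, 23521, 1820 and 16004. The brightest probe set with 1 symbol stood for a gene. Mutant minus control was fitted within each age with limma 3.58.1 (lmFit and eBayes, R 4.3.3), two-sided, adjusted by Benjamini-Hochberg over all genes, and the script was tested on simulated data. The methods' criterion, an unadjusted p with a fold threshold, was not used for calls. Intervals are 95% intervals of that fit. The number of arrays limits the precision.

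The members and gene lists were chosen with earlier results of these data known. Named genes were all members, pathway genes past the adjusted threshold or, in lists without one, that of smallest p at P14, the 5 genes most correlated with Camk1g, and the targeted and driver genes. Alternatives covered normalization, dim genes, variance moderation, joint fits, probe set means, sex, P14 mice 1 and 2 as a block, and each mouse left out.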

Additional observations from a re-analysis of the deposited data

Results flagged for a closer look

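Camk2a and Camk2d each had all mutants on one side of all controls at one age and on the other side at another. Camk2a was lower in mutants at P21 (log2 change -0.07) and higher at P9 (0.19), in 3 and 3 and in 2 and 2 mice, and its P21 groups were only 0.002 apart. Camk2d was lower at P14 (-0.48) and higher at P21 (0.41). In both genes the opposite signs came from the loss-of-function model on one side and the gain-of-function model on the other, with other ages and another array type. The difference itself was not tested for either gene, and age, model and array type cannot be told apart.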

How the results depend on the processing

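No paired analysis was possible because mutants and controls of an age shared no mouse numbers and, although the methods name several litters, no source used here says which mice were littermates. Arrays gave no counts, so the precision was limited by the number of mice. Of the changes of single named genes under alternatives, 165 of 176 at P9, 216 of 256 at P14 and 175 of 180 at P21 kept both their sign and their side of the adjusted threshold. At P14, 36 crossed it and 4 changed sign. Calls across members at P9 rose from 0 to 1 (Camk4, adjusted p = 0.0235, limma) with trended and robust moderation, and calls among pathway genes from 0 to 5. In that setting P9 calls over all genes rose from 15 to 235. Pathway calls at P9 rose to 1 with a filter on dim probe sets and with P9 and P14 fitted jointly. Over all genes, these 2 settings gave 61 and 42 P9 calls. At P14, where 2 members were past the threshold, there were 3 (Camk4 added) with quantile normalization, the dim filter, trended moderation and the joint fit, 1 after centring on the array median, 0 without moderation, 4 with mice 1 and 2 as a block, 4 among mice 9 to 12 only and 0 with sex as a covariate. Leaving out 1 mouse gave 0 (without mutant 9 or 11) to 3 (without mutant 1). Pathway calls at P14 went from 2 to 1 with centring, 0 without moderation, 6 in the joint fit, 15 with the block, 9 among mice 9 to 12, 1 with sex, and 1 to 3 with 1 mouse left out. Over all genes, P14 calls were 217, and 1333 with the block, 984 among mice 9 to 12, 38 with sex and 18 without moderation. They were 39 without mutant 9, 27 without mutant 11 and 304 without mutant 1. Among mice 9 to 12, genotype and sex coincided. The cause of these differences in calls was not tested. The P9 change of Camk2d, 0.01, was -0.0051 with quantile normalization and -0.0108 with centring. With 1 mouse left out it ran from -0.1956 to 0.2208, Camk2g at P9 from -0.0104 to 0.2674, Camk1 at P21 from -0.0345 to 0.0702, Camk1d at P21 from -0.0802 to 0.0088, and Camk1g at P21 from -0.0862 to 0.1522. Camk1g at P14 stayed between -1.78 and -1.48.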
